A study of Mus musculus with 8 samples.

Results

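The enzymes that place N6-methyladenosine (m6A) on RNA, the YTHDF proteins that read it and the demethylases that remove it are described here in mouse haematopoietic stem cells (HSCs). The 10 genes were chosen by name from these roles, with earlier results of these data known. They are the writer complex genes Mettl3, Mettl14, Wtap, Virma and Zc3h13, the reader genes Ythdf1, Ythdf2 and Ythdf3, and the eraser genes Fto and Alkbh5. All 10 were found among the 55487 gene rows of each count table, and all 10 were among the 14360 genes with enough counts to be tested. The 8 bulk RNA-seq libraries were made by Smart-seq2, a full-length cDNA protocol for small numbers of cells, from sorted HSCs. The genotype label is NTC, a non-target control, for 4 libraries and miR652-KD, a knockdown of the microRNA miR-652, for the other 4. The labels name no strain, age, knockdown method or sort markers. They do not say either whether libraries came from separate animals, so p-values refer to library-to-library spread, some of which may be technical. In bulk libraries, fewer cells of a type and less RNA per cell cannot be told apart.

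As background, m6A is the most common internal modification of messenger RNA in mammals. METTL3 is the catalytic subunit of the writer, METTL14 its RNA-binding partner, and WTAP, VIRMA and ZC3H13 form the associated complex that positions the catalytic pair. YTHDF1, YTHDF2 and YTHDF3 are closely related cytoplasmic proteins that bind m6A, and YTHDF2 is best known for recruiting the CCR4-NOT deadenylase and so shortening the life of marked transcripts. FTO and ALKBH5 remove the methyl group. In blood, loss of Mettl3 in HSCs is known to disturb their differentiation, and loss of Ythdf2 is known to expand them.

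The sequences of the miRNA and of its candidate matches in the YTHDF genes are shown because miR-652 is the molecule that the study knocked down. A miRNA pairs with messenger RNA mainly through its seed, bases 2 to 8 counted from the 5′ end, given in capitals. Both mature arms are from RefSeq (GRCm38.p6, the assembly also called mm10), on the plus strand of chromosome X, and no other of the 1679 mature mouse miRNA names in that table shares either seed.
mmu-miR-652-5p, chrX:142739020-142739043: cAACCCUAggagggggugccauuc
mmu-miR-652-3p, chrX:142739060-142739080: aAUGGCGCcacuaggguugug

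The longest annotated 3′ UTR of each gene was searched on its sense strand for the complements of these seeds, TAGGGTT for the 5p arm and GCGCCAT for the 3p arm, and for their shorter forms. The shorter forms were the match to bases 2 to 7 (a 6mer) and that match followed by A (a 7mer-A1). A match to bases 2 to 8 is called a 7mer-m8, and an 8mer is both together. Ythdf2 was the only one of the 10 genes with a match longer than 6 bases, and it had one for each arm. The Ythdf3 gene had a 6mer for the 5p arm near the end of its 3′ UTR. In the mm10 sequences below the matching bases are in capitals, read along the transcript.
Ythdf2, 7mer-m8 of the 3p arm, minus strand, chr4:132185280-132185309: agccggtgtgccctGCGCCATcaaggaaaa
Ythdf2, 7mer-A1 of the 5p arm, minus strand, chr4:132185443-132185472: atgtcctaattctagAGGGTTAaatgttca
Ythdf3, 6mer of the 5p arm, plus strand, chr3:16216994-16217023: cctctttaatctttgAGGGTTtcaataaaa

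These matches are descriptions of the sequence and not sites shown to be bound. In the 3p match of Ythdf2, the part that matches seed bases 2 to 7 begins at base 1630 of the 2012-base 3′ UTR. The 5p match of Ythdf2 begins at base 1467, and that of Ythdf3 at base 3031 of 3059. Ythdf1 and Alkbh5 each held a 6mer of the 3p arm. Over 21007 genes with an annotated 3′ UTR, 1.67% held an 8mer or 7mer-m8 of the 3p arm and 6.84% an 8mer or 7mer-A1 of the 5p arm. Any match to bases 2 to 7 was held by 7.02% of genes for the 3p arm and by 29.5% for the 5p arm. The 3′ UTRs ranged from 171 bases in Mettl3 to 6439 in Mettl14, beside a median of 961 over all genes.

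Counts assigned to genes came to 14017632 to 16763709 per library in NTC and 14677644 to 19894821 in miR652-KD. Levels are given as CPM, a gene's counts scaled by those totals. Of 10 HSC markers, the positive markers Kit (380 to 664 CPM), Hlf (327 to 431 CPM), Procr (104 to 180 CPM) and Slamf1 (33.9 to 65.8 CPM) were present in every library, and the negative markers Cd48 and Flt3 were at 0 to 18.7 and 13.4 to 57.3 CPM. The groups did not overlap in 2 of the 10 HSC markers, beside 646 of all 14360 tested genes (4.50%). Neither of the 2 passed the test. Kit was at 440.0 to 664 CPM in the NTC libraries and at 380.0 to 435 CPM in those of miR652-KD (edgeR adjusted p = 0.782). Ly6a was at 240 to 296 CPM and 316 to 490 CPM (edgeR adjusted p = 0.598), and the part of these in the results below was not tested. Erythroid markers, 10 of 10 with counts, summed to 2357 to 5736 CPM in NTC. In miR652-KD replicates 1 to 4 their sums were 38.2, 122, 190 and 2336 CPM. Granulocyte and monocyte markers, 11 of 11 with counts, had sums of 171 to 14732 CPM (NTC) and 118 to 4808 CPM (miR652-KD). Of 10 tested erythroid genes and 10 tested granulocyte and monocyte genes, 0 were called at an edgeR adjusted p below 0.05. Macrophage and dendritic markers, 10 of 10 with counts, had sums of 1658 to 3453 CPM (NTC) and 2765 to 3244 CPM (miR652-KD). Of their 7 tested genes 3 were called at an edgeR adjusted p below 0.05, beside 6 of all 14360 tested genes (0.0418%). Of 9 lymphoid markers, Cd3e, Cd8a and Ncr1 were at 0 in every library and the sum was at most 24.5 CPM, and megakaryocyte markers summed to 271 to 462 CPM. The Mir652 hairpin had at most 5 counts in any library, so the knockdown could not be checked. The NTC mean of its host gene Tmem164 was 102 ± 28.4 CPM and the miR652-KD mean 69.8 ± 11.97 CPM (SD, n = 4; edgeR quasi-likelihood with Benjamini-Hochberg adjustment, adjusted p = 0.803). Pus10, the pseudouridine synthase of the series title, was at 27.8 ± 12.03 and 34.5 ± 12.4 CPM (SD, n = 4; edgeR adjusted p = 0.995).

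All 10 genes had counts in every library. Compared per length, as TPM, which scale each gene's counts by its merged exon length and by the library, Ythdf2 was highest at 121 ± 11.5 TPM (SD over 8 libraries). The scaffold gene Wtap came next at 76.1 ± 8.43 TPM, and then the eraser gene Alkbh5 at 49.7 ± 8.02 TPM. The ranges over the 8 libraries did not overlap between Ythdf2 and Wtap, nor between Wtap and Alkbh5. From there on, neighbours in the order overlapped in range. Ythdf1 was at 36.6 ± 10.5 TPM, Zc3h13 at 26.2 ± 8.86 TPM, Ythdf3 at 20.9 ± 9.58 TPM and Fto at 20.5 ± 5.31 TPM. Virma was at 19.7 ± 7.77 TPM, and the catalytic pair was lowest, with Mettl3 at 16.4 ± 4.76 TPM and Mettl14 at 12.97 ± 3.32 TPM. The order depends on the length used. With the longest annotated transcript instead of merged exons, Wtap was first at 114 TPM, Ythdf2 next at 102 TPM and Fto after it at 43.3 TPM. Mettl3 was then at 29.5 TPM, above 5 of the other genes, so its low place rests on the length chosen. Mettl14 alone kept its place, the last, at 10.2 TPM. The merged exons of Fto cover 13031 bases and its longest transcript 4707, so its level per length is the least certain.

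Comparing miR652-KD with NTC asks which transcripts differ when miR-652 is knocked down. None of the 10 genes passed an adjusted p of 0.05, where 6 of all 14360 tested genes did (0.0418%; edgeR quasi-likelihood with Benjamini-Hochberg adjustment over all tested genes). At an unadjusted p below 0.05 there was 1 of 10, Ythdf3, beside 860 of all tested genes (5.99%). Ythdf3 was also the 1 gene of 10 whose groups did not overlap, beside 646 of all tested genes (4.50%). DESeq2 called 1 of 10, again Ythdf3, beside 130 of the 16479 genes it gave an adjusted p (0.789%). The log2 differences were above 0 for 5 genes and below 0 for 5, with a median of -0.04, beside -0.0043 over all tested genes. Their median size regardless of sign was 0.085, beside 0.25 over all tested genes.

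**Figure D1:**
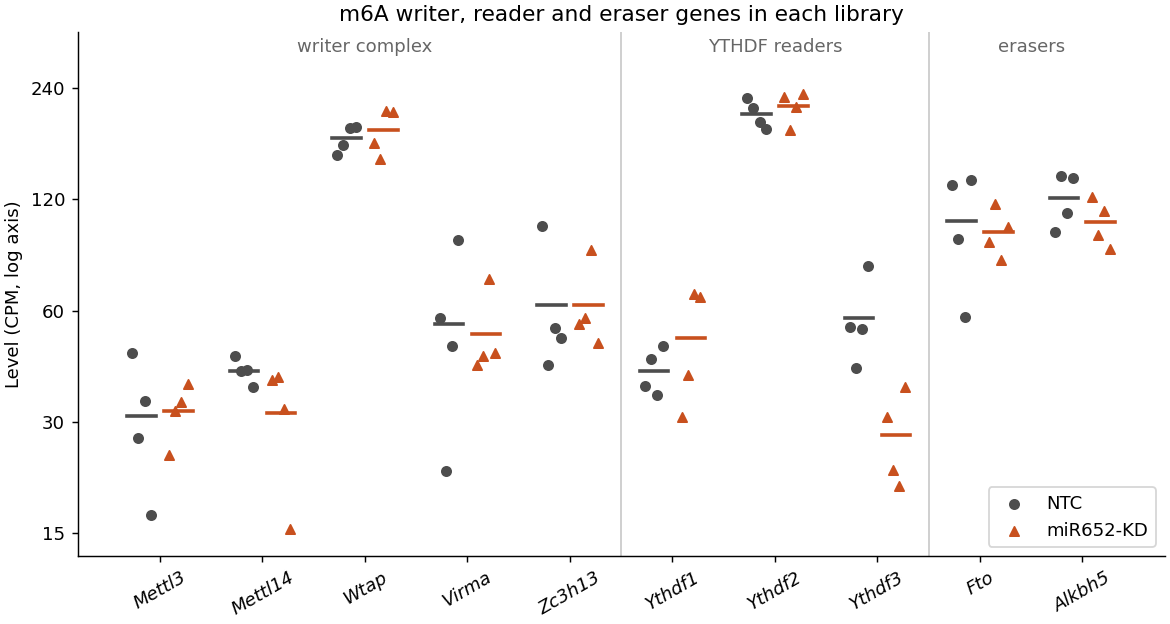
Level of the 10 genes in each of the 8 libraries, in CPM on a log axis, with NTC as circles, miR652-KD as triangles and the group mean as a bar. The groups overlap in every gene but Ythdf3, whose 4 miR652-KD values of 20.1 to 37.2 CPM lie below the 4 NTC values of 41.9 to 79.3 CPM.

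Within the writer complex, no gene passed the test and the groups overlapped in all 5. Mettl3 (ENSMUSG00000022160.18, chr14:52294841-52305128, minus strand, mm10) stood at 46.1, 27.1, 34.2 and 16.7 CPM in NTC replicates 1 to 4. In miR652-KD replicates 1 to 4 it stood at 24.3, 32.1, 33.9 and 37.9 CPM. Both the highest and the lowest value belonged to NTC libraries, and the means were close, at 31.0 ± 12.4 and 32.1 ± 5.69 CPM (SD, n = 4). Its log2 difference was 0.06 (SE 0.31), with a 95% interval from -0.63 to 0.74 (edgeR adjusted p = 0.999).

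Mettl14 (ENSMUSG00000028114.16, chr3:123368297-123386108, minus strand), the RNA-binding partner, had the most even NTC values of the 10 genes, at 45.1, 41.2, 41.4 and 37.2 CPM. The miR652-KD values were 39.0, 39.6 and 32.6 CPM in replicates 1 to 3 and 15.4 CPM in replicate 4, the lowest of all. Its means were 41.2 ± 3.22 and 31.6 ± 11.3 CPM (SD, n = 4), and the log2 difference was -0.38 (SE 0.29; 95% interval from -1.02 to 0.27; edgeR adjusted p = 0.976). Without miR652-KD replicate 4 that difference was -0.15, so much of its size came from this library.

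Wtap (ENSMUSG00000060475.13, chr17:12966796-12994169, minus strand), which anchors the catalytic pair in the nucleus, was the most abundant writer gene and the most even. NTC values were 159, 168, 187 and 189 CPM, and miR652-KD values 170, 154, 208 and 207 CPM. Its log2 difference of 0.07 (SE 0.13) had a 95% interval from -0.21 to 0.36 (edgeR adjusted p = 0.999).

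Virma (ENSMUSG00000040720.15, chr4:11485958-11550684, plus strand), the large scaffold subunit, varied most among the 10. It ranged from 22.1 CPM in NTC replicate 2 to 93.1 CPM in NTC replicate 4, with the other NTC libraries at 57.2 and 48.1 CPM. The miR652-KD libraries were at 42.8, 45.0, 73.1 and 46.2 CPM, all inside the NTC range. The log2 difference of -0.09 had a 95% interval from -0.92 to 0.75, the widest of the 10.

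Zc3h13 (ENSMUSG00000022000.11, chr14:75284373-75344426, plus strand), the zinc finger subunit that holds the complex in the nucleus, was at 102, 42.8, 53.9 and 50.5 CPM in NTC. In miR652-KD it was at 55.0, 57.2, 87.6 and 48.9 CPM. One library in each group stood above the rest, NTC replicate 1 and miR652-KD replicate 3. The log2 difference was 0.01 (SE 0.29; 95% interval from -0.63 to 0.65).

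**Figure D2:**
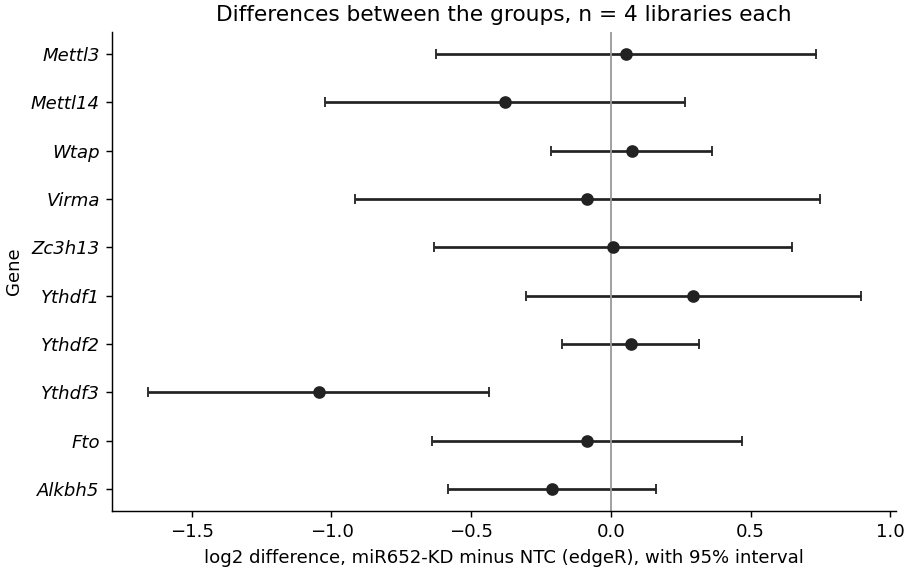
Log2 difference of each of the 10 genes between miR652-KD and NTC (points) with its 95% interval (bars), from edgeR with 4 libraries per group. The intervals of 9 genes include 0, and that of Ythdf3 runs from -1.66 to -0.44, although its adjusted p is 0.637.

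Among the readers, Ythdf3 had a lower mean in miR652-KD than in NTC, while Ythdf1 and Ythdf2 had group means slightly above those of NTC. Ythdf3 (ENSMUSG00000047213.14, chr3:16183212-16217037, plus strand) stood at 54.3, 41.9, 53.5 and 79.3 CPM in NTC replicates 1 to 4. The miR652-KD replicates 1 to 4 had 30.9, 22.2, 20.1 and 37.2 CPM. The highest miR652-KD value lay below the lowest NTC value, and NTC replicate 4 lay well above the other NTC libraries. These values rest on 588 to 1161 counts per library in NTC and 365 to 644 in miR652-KD. The means were 57.3 ± 15.8 and 27.6 ± 7.92 CPM (SD, n = 4). The fold fitted by edgeR was 0.484, with a 95% interval from 0.317 to 0.740. The log2 difference of -1.05 (SE 0.27) had an unadjusted p of 0.00342, the 77th smallest of 14360. Adjusted over all tested genes it did not pass (edgeR quasi-likelihood with Benjamini-Hochberg adjustment, adjusted p = 0.637).

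The call on Ythdf3 depended on the test, and its direction did not in any of the 17 alternatives run. DESeq2 on all genes gave a log2 difference of -1.05 and an adjusted p of 0.0434. DESeq2 restricted to the genes tested by edgeR, an alternative chosen after seeing the data, gave an adjusted p of 0.103, and limma-voom a log2 difference of -1.005 and an adjusted p of 0.588. Leaving out single libraries, the log2 difference of Ythdf3 ran from -1.23 without miR652-KD replicate 4 to -0.84 without NTC replicate 4, with edgeR adjusted p from 0.576 to 0.875. Since the groups of Ythdf3 do not overlap, its direction under such omissions is no check.

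The erythroid marker sum was also lower in every miR652-KD library than in any NTC library, although 0 of its 10 tested genes were called. The part of this sum in the difference of Ythdf3 was not tested. In miR652-KD replicate 4 the erythroid sum of 2336 CPM was near the 2408 and 2357 CPM of NTC replicates 1 and 3. Ythdf3 was at 37.2 CPM in that miR652-KD library, the highest value of its group, and at 54.3 and 53.5 CPM in those NTC libraries. The granulocyte and monocyte sums were highest in NTC replicates 3 and 4, at 9264 and 14732 CPM. Without these libraries the log2 difference of Ythdf3 was -0.79 (edgeR unadjusted p of 0.0403 and adjusted p = 0.87). Its direction there is no check, since the groups of Ythdf3 do not overlap. NTC replicate 2 at 3006 CPM and miR652-KD replicate 1 at 4808 CPM stayed in. The part of granulocyte and monocyte content in the difference of Ythdf3 was not tested.

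**Figure D3:**
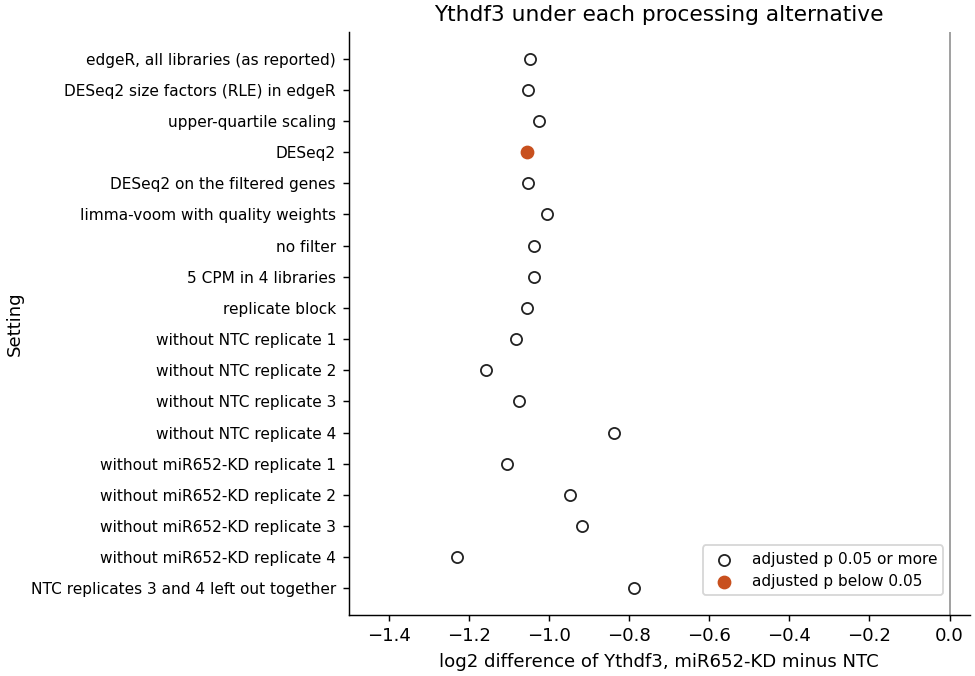
Log2 difference of Ythdf3 between miR652-KD and NTC under each of 18 settings, with filled points where the adjusted p was below 0.05 and open points otherwise. All points lie between -1.23 and -0.79, and DESeq2 on all genes is the only filled one.

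Ythdf2 (ENSMUSG00000040025.17, chr4:132184912-132212303, minus strand), the reader linked to transcript decay, was the steadiest of the 10 genes. NTC values were 226, 213, 194 and 186 CPM, and miR652-KD values 228, 185, 213 and 231 CPM. The highest of the 8 values was 1.25 times the lowest, and the groups overlapped almost completely. The means were 205 ± 17.6 and 214 ± 20.9 CPM (SD, n = 4), with a log2 difference of 0.07 (SE 0.11; 95% interval from -0.17 to 0.32). Ythdf2 is also the gene with the longest seed matches shown above. Whether they are bound was not tested, and the knockdown could not be checked in these libraries.

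Ythdf1 (ENSMUSG00000038848.14, chr2:180904377-180920949, minus strand), the reader best known for promoting translation, was at 37.4, 44.3, 35.4 and 48.0 CPM in NTC. Among the miR652-KD libraries, replicates 1 and 2 had 30.9 and 40.1 CPM and replicates 3 and 4 had 66.5 and 65.2 CPM. Replicates 3 and 4 lay above all NTC libraries and replicate 1 below all of them. The log2 difference was 0.30 (SE 0.27; 95% interval from -0.30 to 0.89; edgeR adjusted p = 0.992).

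The YTHDF genes were also read as shares of their summed level per length, as a description without a test. Ythdf3 made up 14.3%, 11.6%, 15.8% and 21.1% of the sum in NTC replicates 1 to 4. The corresponding shares in miR652-KD were 8.89%, 7.29%, 5.32% and 8.98%. The means were 15.7% ± 4.02 and 7.62% ± 1.72 (SD, n = 4), without overlap. This share rests on the same Ythdf3 counts and is not a separate result. Ythdf2 held the largest share in every library, 58.2% to 69.7% in NTC and 65.6% to 76.8% in miR652-KD. Ythdf1 held 15.9% to 20.7% in NTC and 14.3% to 28.5% in miR652-KD, and the groups overlapped in the shares of both Ythdf2 and Ythdf1. The summed level of the 3 genes was 180 ± 9.79 TPM (NTC) and 178 ± 23.3 TPM (miR652-KD; SD, n = 4), and these sums overlapped.

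**Figure D4:**
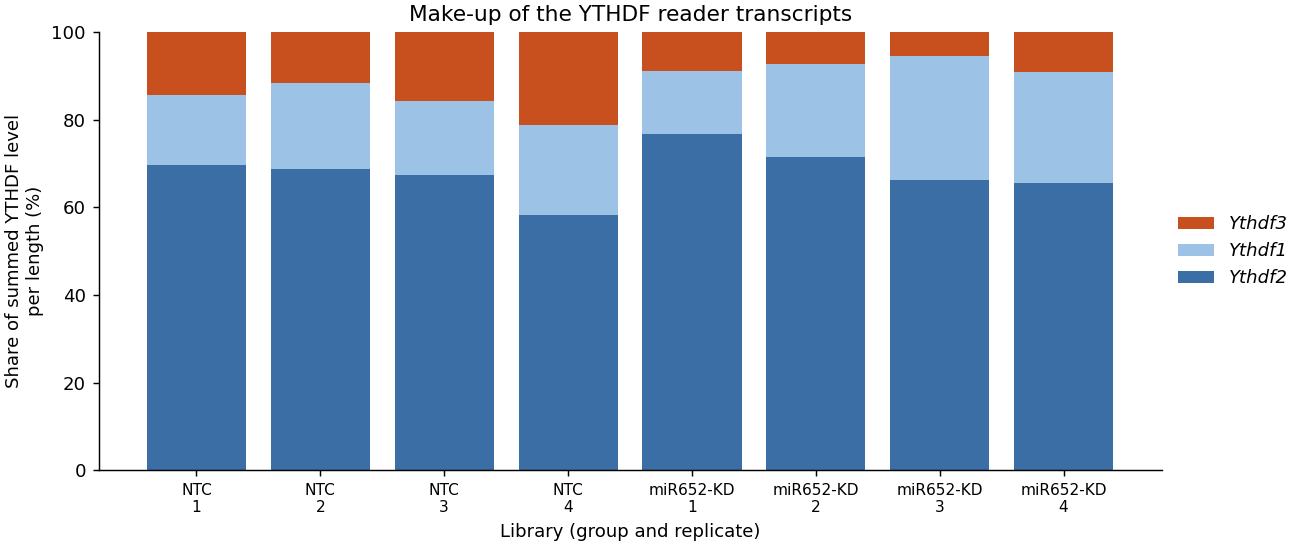
Share of the summed YTHDF level per length, in percent, taken by Ythdf2, Ythdf1 and Ythdf3 in each of the 8 libraries. Ythdf3 takes 11.6% to 21.1% in the NTC libraries and 5.32% to 8.98% in the miR652-KD libraries.

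Both eraser genes overlapped between groups and neither passed the test. Fto (ENSMUSG00000055932.15, chr8:91313525-91668439, plus strand) had NTC values of 131, 93.8, 57.6 and 136 CPM and miR652-KD values of 92.2, 117, 82.1 and 101 CPM. All 4 miR652-KD values lay inside the NTC range. Its log2 difference was -0.09 (SE 0.25; 95% interval from -0.64 to 0.47). Alkbh5 (ENSMUSG00000042650.3, chr11:60536381-60558512, plus strand) had NTC values of 97.6, 138, 110.4 and 137 CPM and miR652-KD values of 122, 96.4, 112 and 87.9 CPM. The means of Alkbh5 were 121 ± 20.2 and 104 ± 15.2 CPM (SD, n = 4), with a log2 difference of -0.21 (SE 0.17; 95% interval from -0.58 to 0.16; edgeR adjusted p = 0.985).

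The spread of the 10 genes between libraries of a group was set beside that of all tested genes, without matching for level. Their median biological coefficient of variation, the spread that edgeR estimates beyond counting noise, was 28.6%, beside 37.1% over all tested genes. That of Ythdf2 was 14.8%, lower than all but 1.29% of tested genes. The median SE of the log2 difference was 0.27 for the 10 genes and 0.35 for all tested genes. NTC replicates 1 and 4 and miR652-KD replicate 3 each had 7 of the 10 genes above their mean over the 8 libraries. NTC replicate 1 held the highest value of 3 genes and the lowest of none. It also had 16.9% of its reads outside genes, where the other libraries had 9.69% to 11.3%. The part of this in its levels was not tested, and without it the log2 difference of Ythdf3 was -1.08. NTC replicate 4 too held the highest value of 3 genes, and NTC replicate 2 and miR652-KD replicates 2 and 4 each held the lowest value of 2 genes. The summed level of the 10 genes was 816 to 973 CPM over the NTC libraries and 789 to 929 CPM over those of miR652-KD.

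Some of these counts could be shared with other loci, and reads that fit several genes could instead have been set aside as ambiguous. A search of the annotated transcripts at 90% identity over at least 100 bases found processed pseudogenes for Wtap and Ythdf2. The Wtap copy Gm14292, 99.3% identical over 456 bases, had 16 to 47 counts per library, and the Ythdf2 copy Gm8401, 96.3% identical over 1740 bases, had 0 to 6. The search found no such copy of Ythdf3, whose transcript is 69.2% identical to that of Ythdf1 and 70.5% to that of Ythdf2 where they align. Mettl3 overlaps Tox4 on the opposite strand over 18.4% of its exon bases, and reads there cannot be assigned by strand. Tox4 was at 59.1 to 98.9 CPM, with a log2 difference of 0.08. Fto shares 144 exon bases with 4831440D22Rik and 304 with Gm45427.

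The 10 transcripts themselves were searched for GGACT, a frequent form of the sequence in which m6A is placed. All 10 held it on the sense strand of their longest coding transcript, as did 92.6% of 11539 tested coding genes. Their median was 1.10 copies per kilobase, beside 1.04 for those coding genes. Mettl3 at 1.98, Wtap at 1.88 and Alkbh5 at 1.75 copies per kilobase were the densest of the 10. Ythdf3 was the sparsest, with 1 copy in 5102 bases. Methylation itself was not measured in these libraries.

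Genes that work with the 10, in 5 lists, were examined in the same fit. Of 40 such genes 39 were tested, Igf2bp1 being at 0 counts in all libraries, and 0 passed an adjusted p of 0.05. At an unadjusted p below 0.05 there were 6, all with lower means in miR652-KD, or 15.4% beside the 5.99% of all tested genes, of which 444 of 860 were below 0. The groups did not overlap in 4 of the 39, all lower in miR652-KD, beside 646 of 14360 tested genes (4.50%), 309 of them lower. These lists were chosen with earlier results of these data known, so the shares describe them and support nothing further.

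Among the other readers, 7 of 9 tested genes had log2 differences below 0, with a median of -0.16. Over all 14360 tested genes 7247 were below 0, with a median of -0.0043. Hnrnpa2b1, an RNA-binding protein linked to m6A in the nucleus, ranged from 953 to 1004 CPM in NTC and from 814 to 889 CPM in miR652-KD, without overlap. Its log2 difference was only -0.17 (edgeR adjusted p = 0.817). Prrc2a had a log2 difference of -0.55 and the nuclear reader Ythdc1 one of -0.29, both with overlapping groups. Among the CCR4-NOT deadenylase subunits, 7 of 10 were below 0, with a median of -0.19, again beside 7247 of all 14360 tested genes. The catalytic subunit Cnot7 had NTC values of 86.1, 93.7, 83.7 and 94.9 CPM and miR652-KD values of 63.9, 49.97, 50.5 and 81.5 CPM. These groups did not overlap, and the log2 difference of -0.54 (SE 0.19) did not pass (edgeR adjusted p = 0.779). Cnot9 had -0.53 with overlap, and the deadenylase Cnot6l -0.20. The highest miR652-KD value of Cnot7 was in replicate 4, the library of that group with the highest erythroid sum, and the part of the marker sums in these lists was not tested.

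Of the other writer subunits and adenosine methyltransferases 6 of 9 had log2 differences above 0, beside 7113 of all 14360 tested genes, with a median of 0.22. None of the 9 had an unadjusted p below 0.05 in edgeR, and the groups overlapped in all of them. Trmt112, the activating partner of several methyltransferases, was at 0.30 (edgeR adjusted p = 0.851), Mettl4 at 0.33 and the adaptor Rbm15b at 0.38. The methyl donor enzymes Mat2a, Mat2b and Ahcy, which make S-adenosylmethionine or clear its product, were within 0.10 of 0 on the log2 scale. Of 8 transcripts known to carry m6A in blood cells 5 were below 0, beside 7247 of all 14360 tested genes, with a median of -0.26. The stem cell factor Tal1 was at -0.38 with overlap. Myb, a transcript that METTL14 is known to act on in leukaemia cells, was at -0.23 without overlap (edgeR adjusted p = 0.86).

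**Figure D5:**
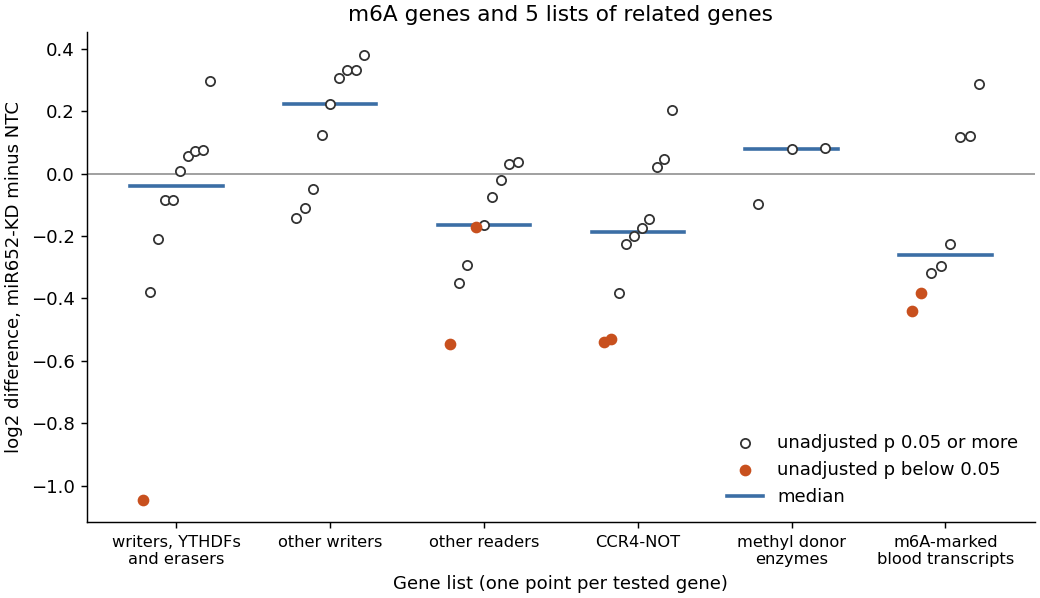
Log2 difference between miR652-KD and NTC of each tested gene among the 10 writer, YTHDF and eraser genes and in 5 lists of related genes, with the median of each list as a bar. Points filled at an unadjusted p below 0.05 number 1 among the 10 genes and 6 in the other lists, and all 7 lie below 0.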

How the data were processed

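Per the labels, HSCs were sorted into lysis buffer and made into Smart-seq2 libraries. The deposited values are raw read counts for each gene. The submitters' processing notes name mm10, HISAT2 2.1.0, DESeq2 and HTSeq 0.11.2. For the annotation release and the strand setting used by the authors no source was at hand. The 5 summary lines of each file, with 9.69% to 16.9% of reads outside genes and 8.94% to 12.3% ambiguous, stayed out of totals and tests.

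Identifiers were matched without version to GENCODE M21, which found 55394 of 55487 genes. CPM are counts scaled by the library total over gene rows. TPM were computed from merged exon length and TMM-scaled. The main test was the quasi-likelihood test of edgeR 4.0.16 (R 4.3.3) on 4 against 4 libraries, with TMM scaling and filterByExpr at its minimum count of 10 and total of 15. Benjamini-Hochberg adjustment ran over all 14360 tested genes, and genes were called at an adjusted p below 0.05. SE is the size of the log2 difference divided by the square root of F. Without molecular identifiers, reads copied in amplification were counted.

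The procedure was tested on simulated data with 200 changed genes, drawn from genes at a mean of 5 CPM or more. Changed genes below that mean were not simulated. At an adjusted p below 0.05 edgeR called 27% of the tested genes changed 2-fold and 68.7% of those changed 4-fold. It also called 3 unchanged genes. Alternatives tried were scaling by upper quartile or RLE, tests by DESeq2 1.42.0 and limma-voom 3.58.1 with quality weights, testing without a filter or at 5 CPM in 4 libraries, the replicate number as a block, and libraries left out. All 10 genes are named, and of each related list the 3 genes of smallest p. Of these, 1 gene of the related lists is left out of the text. Members and lists were chosen with earlier results of these data known.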

Additional observations from a re-analysis of the deposited data

Results flagged for a closer look

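In 2 of 50 groups of 4 libraries (25 genes, the 10 described above and the 15 of smallest p from related lists), 1 library stood apart from the other 3 by more than Dixon's 95% critical value. Chance alone flags about 1 in 20 such groups. Virma was at 73.1 CPM in miR652-KD replicate 3, where the other miR652-KD libraries were at 42.8 to 46.2 CPM. Mettl4, an adenosine methyltransferase, was at 30.1 CPM in NTC replicate 1, where the other NTC libraries were at 19.6 to 20.8 CPM.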

How the results depend on the processing

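Against 6 genes past the threshold over all tested genes, DESeq2 called 130 (55 higher, 75 lower) and DESeq2 on the genes tested by edgeR 61 (25 higher, 36 lower). RLE scaling called 5, upper-quartile scaling 6, limma-voom 7, no filter 6 and the filter of 5 CPM 5. With edgeR, leaving out any single library called 0 to 0 genes (789 to 992 at an unadjusted p below 0.05), and leaving out NTC replicates 3 and 4 together called 0 (884). With the replicate block edgeR called 0 (733 at an unadjusted p below 0.05). The block moved the log2 difference of Ythdf3 to -1.06, with an adjusted p of 0.905. Deviations of log2 CPM from each gene's group mean were correlated between same-numbered NTC and miR652-KD libraries, giving -0.033 to -0.0101. In these deviations no library correlated best with its own number, so the numbers were not taken to pair the samples. Of the 10 genes, 1 was past the threshold with DESeq2 and 0 in every other alternative. With the longest transcript as length, 1 of 10 places in the order was kept.

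Mettl14, Wtap, Ythdf1, Ythdf3 and Alkbh5 kept their direction in all 17 alternatives. The others, all within 0.09 of 0, changed sign at least once, and the cause was not tested. The groups of Ythdf3 do not overlap, so its direction with libraries left out is no check. Without NTC replicates 3 and 4 the log2 difference was -0.18 for Mettl3, 0.40 for Virma, -0.20 for Zc3h13 and -0.021 for Ythdf2. Limma-voom gave 0.058 for Virma and 0.057 for Fto, and the block gave 0.053 for Virma. Leaving out single libraries gave -0.14 to 0.29 for Mettl3, -0.34 to 0.30 for Virma, -0.20 to 0.33 for Zc3h13 and -0.29 to 0.076 for Fto. The 95% intervals given above show the precision of the log2 differences with 4 libraries per group.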

Other observations

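Ratios within a library put the partners of a reaction side by side, per length. The ratio of Mettl14 to its catalytic partner Mettl3 was 0.668, 1.04, 0.8287 and 1.52 in NTC replicates 1 to 4. It was 1.10, 0.844, 0.657 and 0.277 in miR652-KD replicates 1 to 4. The lowest ratio, in miR652-KD replicate 4, came from the library with the lowest Mettl14 value, and the groups overlapped. With the longest transcript as length the ratios were 0.293 to 0.666 in NTC and 0.122 to 0.481 in miR652-KD, so whether Mettl14 or Mettl3 was higher also rests on the length chosen. Alkbh5 exceeded Fto per merged exon length in every library, by 1.62 to 4.17 times in NTC and 1.79 to 2.96 times in miR652-KD. With the longest transcript as length Fto was the higher of the pair on average, at 43.3 against 39.6 TPM, so this order rests on the length chosen.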
